A study of Mus musculus with 6 samples.

Results

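The mitochondrial carrier family, named Slc25, is a set of transporters of the inner mitochondrial membrane that move nucleotides, phosphate, amino acids, keto acids, acylcarnitines, cofactors and metals between the cytosol and the matrix. A few members sit in the outer membrane or in peroxisomes. N6-methyladenosine (m6A) is a methyl mark on RNA, placed mostly near stop codons and in 3′ untranslated regions by a nuclear writer complex, and it affects splicing, translation and decay of the marked transcript. Male germ cells carry a carrier of their own, Slc25a31, an ADP/ATP carrier that takes the place of the X-linked Slc25a5 during meiosis, when the X chromosome is silenced.

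The members were all peaks whose gene name starts with Slc25a. They came to 44 peaks on 31 genes of the 24127 peaks on 13334 genes in the comparison of ClpP cKO with WT, and to 44 peaks on 31 genes of the 23681 peaks on 13085 genes in the comparison of ClpX cKO with WT. In all 33 carrier genes had a listed peak in either comparison and 29 in both. RefSeq lists 47 Slc25a genes on the same build (GRCm38), and the other 14, among them the ADP/ATP carrier Slc25a5, the citrate carrier Slc25a1 and the aspartate-glutamate carriers Slc25a12 and Slc25a13, were not analysed here.

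The groups were ClpP cKO germ cells, ClpX cKO germ cells and WT germ cells, all described as spermatocytes of male mice at postnatal day 35. Each knockout was made in male germ cells with Stra8-Cre, a Cre driven by a promoter active from spermatogonia on, and the labels do not say whether WT animals carry Cre or floxed alleles. Each genotype had 1 immunoprecipitated (IP) library, holding RNA captured by an m6A antibody, and 1 input library, so replicate errors cannot be given. ClpP is the protease subunit and ClpX the unfoldase of ClpXP, a protease of the mitochondrial matrix, and the study asked about mitochondrial function in these cells.

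The deposited values are the authors' own comparisons, 1 table per knockout, and each table rests on 4 libraries. Values of single libraries were not used here, and their depth is unknown. For each peak the authors gave a fold enrichment of IP over input over all libraries of a table, a log2 fold change of that enrichment between genotypes, and an adjusted p. A positive log2 fold change is read as higher m6A enrichment in the knockout. The sole basis for this direction is that the knockout stands before WT in the name of each table. A call means an adjusted p of the authors under 0.05, and it compares these libraries and not the genotypes in general. Both comparisons share the WT libraries. Peaks give no RNA level, so the cell type was looked at only by presence: of 6 genes of the meiotic axis and recombination (Sycp1, Sycp2, Sycp3, Hormad1, Dmc1 and Spo11), 5 had a peak in the ClpP comparison and 4 in the ClpX comparison. Peaks are listed over all libraries of a comparison, WT among them, so these counts cannot show the cell type of any single genotype.

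No genome sequence was used here, and only a few carrier peaks lie where a RefSeq promoter window of the same build gives their bases. The first is the ClpX peak of Slc25a31 (chromosome 3, plus strand, 40708855 to 40709005), which starts 16 bases before the RefSeq start of the gene. The window is shown as an example in which a peak of the gene itself reaches the gene start. The 5′ peaks of Slc25a2 and Slc25a44 also lie at the RefSeq start of their own genes, and the windows of those genes are not shown. The Slc25a31 peak is 151 bases wide, and its other bases lie past the window shown and were not read. Capitals mark the 66 bases of the window that lie under the peak, of which 50 lie after the gene start, at chr3:40708621-40708920 on the plus strand.
Slc25a31: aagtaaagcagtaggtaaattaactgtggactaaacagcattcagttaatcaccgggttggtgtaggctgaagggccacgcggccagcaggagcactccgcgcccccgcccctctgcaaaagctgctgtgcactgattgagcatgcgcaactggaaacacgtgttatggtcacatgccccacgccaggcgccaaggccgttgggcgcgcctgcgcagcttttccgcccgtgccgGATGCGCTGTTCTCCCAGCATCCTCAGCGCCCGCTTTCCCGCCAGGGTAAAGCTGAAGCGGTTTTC

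The window was searched on both strands. The letters GGAC, the core of the sequence preferred by the m6A writer, occur 0 times on either strand in the 66 bases of the peak that were read, which leaves the rest of the peak unsearched, and 1 time elsewhere in the window. The letters TCCCGC, bound by E2F6, a repressor of meiotic genes in somatic cells, occur 1 time, on the gene strand 21 bases into the gene. Either strand of 87.7% of the 32817 RefSeq promoters holds GGAC, and either strand of 20.0% holds TCCCGC, so neither match is rare. The window holds 22 CG pairs, against a median of 7 over all promoters, and 23.1% of promoters hold as many or more.

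Stretches of 30 bases around GGAC could be read in 2 peaks of Slc25a44 and in the peak of Slc25a35, and they show the candidate methylation letters inside listed peaks. Capitals mark GGAC on the strand of the RNA. The first lies near the 3′ end of Slc25a44 at chr3:88410566-88410595 on the minus strand, the second near its 5′ end at chr3:88425045-88425074 on the minus strand, and the third at chr11:68973829-68973858 on the plus strand.
Slc25a44 3′ site: attagctagaaatGGACtcgaggagattag
Slc25a44 5′ site: ctggctgtcgctgGGACtggaggatagcgc
Slc25a35 site: ctactaagcaatgGGACctttaagatctgg
Each of these 3 peaks had 1 GGAC on the RNA strand in the part whose bases were read, and none of the 3 was called in either comparison. On the other strand GGAC occurred 0 times in the Slc25a44 3′ peak, 2 in the 5′ peak and 1 in the Slc25a35 peak. The bases come from the promoter windows of Pmf1, Gm33513 and Rangrf, in the order shown. Whether GGAC is more frequent in these peaks than elsewhere was not tested.

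In ClpP cKO against WT, 7 carrier peaks were called lower and 1 was called higher. That is 15.9% lower and 2.27% higher of the 44 carrier peaks, against 12.8% lower and 6.74% higher of all peaks in the table. In all 18.2% of carrier peaks were called and 19.6% of all peaks, so the share of calls was near that of the table. The 8 calls fell on 8 genes: Slc25a2, Slc25a20, Slc25a25, Slc25a32, Slc25a33, Slc25a46 and Slc25a51 lower, and Slc25a31 higher. The median log2 fold change was -0.13 over the 44 carrier peaks (10th to 90th percentile -1.20 to 1.43), against -0.03 over all peaks (-1.18 to 1.44). The sign was positive at 20 carrier peaks, negative at 23 and exactly 0 at 1. The libraries are bulk, so other proportions of cell types and other values per cell cannot be told apart in any of these differences.

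In ClpX cKO against WT, 3 carrier peaks were called higher and 0 lower by the authors' adjusted p. At an unadjusted p under 0.05, 7 of the 44 carrier peaks were higher and 1 lower, against 4909 higher and 2111 lower of all 23681 peaks. A Benjamini-Hochberg adjustment of the authors' p-values computed here also gave 3 higher and 0 lower. It starts from the same p-values, so here and below it is no independent check. The 3 calls, on Slc25a3, Slc25a25 and Slc25a28, are 6.82% of the 44 carrier peaks, against 20.1% of all peaks called either way. Among all peaks 15.1% were called higher and 5% lower. The median log2 fold change was 0.04 over carrier peaks (-1.01 to 1.18) and 0.24 over all peaks (-1.38 to 1.79), with 23 positive signs, 19 negative and 2 at exactly 0. Only Slc25a25 was called in both comparisons, at different sites, and 0 of the 35 sites paired between the tables were called in both. The share called in both over all 18709 paired peaks was not computed. With 8 carrier calls for ClpP and 3 for ClpX, the 0 cannot be read as a trait of the carriers.

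**Figure D1:**
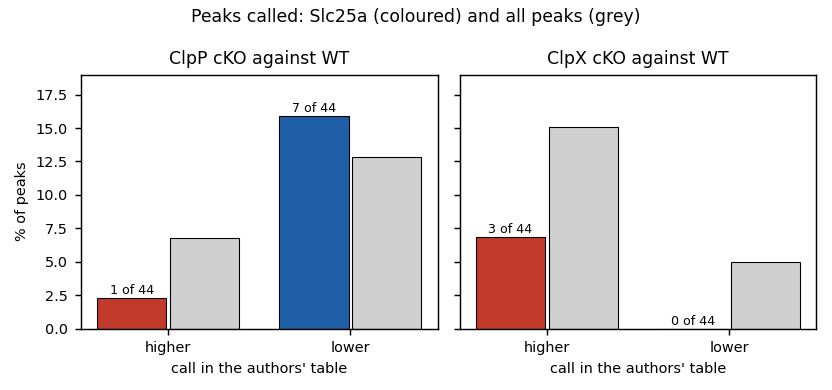
Share of peaks (% on the y axis, from 0) that the authors called higher or lower in each knockout against WT, for the 44 Slc25a peaks of each table (coloured bars, with their counts) and for all peaks of the table (grey bars). Carrier peaks called lower make up 7 of 44 in ClpP cKO and 0 of 44 in ClpX cKO.

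Carriers of adenine nucleotides and phosphate had 1 peak higher and 1 lower of 12 in ClpP cKO, against 6.74% higher and 12.8% lower of all peaks, and 2 higher and 0 lower of 12 in ClpX cKO, against 15.1% and 5%. No difference from these shares was tested. Slc25a31, the germ cell ADP/ATP carrier, was called higher in ClpP cKO at a peak near its 3′ end (chromosome 3, 40725377 to 40725497), with a log2 fold change of 2.36 at an adjusted p of 0.00102 per the authors' deposited table. That peak had the lowest fold enrichment of the family, 1.67 per the authors' deposited table, and was 121 bases wide. The call is lost, and with it the only carrier increase for ClpP, when peaks under a fold enrichment of 2 are left out. In ClpX cKO its only listed peak was the 5′ one shown above, with a log2 fold change of 0.97, an adjusted p of 0.0589 and a fold enrichment of 2.28 per the authors' deposited table, and it was not called. The 2 peaks of Slc25a31 lie at opposite ends of the gene, so its values in the knockouts describe different sites.

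Slc25a3, which imports the phosphate used for ATP synthesis, had the same peak bounds in both comparisons (chromosome 10, 91116754 to 91116994, 180 bases from the 3′ end of the gene). In ClpX cKO it was called higher at a log2 fold change of 0.81 with an adjusted p of 0.00135 per the authors' deposited table. In ClpP cKO its log2 fold change was 0.26 with an adjusted p of 0.229 per the authors' deposited table. Its enrichment was low in both, at 2.47 for ClpX and 2.79 for ClpP per the authors' deposited table.

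Slc25a4, the ADP/ATP carrier of heart and muscle, had 2 peaks in each comparison and no call. Its peak toward the 3′ end had a log2 fold change of 1.03 (adjusted p 0.0676) for ClpP and -0.11 (0.664) for ClpX per the authors' deposited table. Its other peak had -0.34 for ClpP and 0.76 for ClpX per the authors' deposited table. The paired peaks toward the 3′ end differ in extent, 477 bases for ClpP and 120 for ClpX.

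Slc25a25, a calcium-regulated carrier exchanging ATP-Mg for phosphate, was called at neighbouring sites in opposite directions. The site farther from the 3′ end (chromosome 2, 32415981 to 32416310) was called lower in ClpP cKO, at -1.21 with an adjusted p of 0.0214 per the authors' deposited table. At its partner (32415952 to 32416456) ClpX cKO had -0.31 with an adjusted p of 0.508 per the authors' deposited table. The site nearer the 3′ end (32415204 to 32415623) was called higher in ClpX cKO, at 1.07 with an adjusted p of 0.02 per the authors' deposited table. There ClpP cKO had -0.75 with an adjusted p of 0.117 per the authors' deposited table. Another peak of 120 bases was listed for ClpX alone, at -0.30 per the authors' deposited table.

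The related ATP-Mg carriers had no call. Slc25a23 stood at 0.99 for ClpP and 1.22 for ClpX, and Slc25a41 at 0.10 and -0.26, per the authors' deposited table. Slc25a24 had 0.90 for ClpP at a peak of 657 bases and -1.86 for ClpX at a peak of 300 bases per the authors' deposited table, with adjusted p of 0.344 and 0.352. Slc25a54, a close relative, had a peak for ClpP alone, with a fold enrichment of 27.6 and a log2 fold change of 2.03 (adjusted p 0.388) per the authors' deposited table. Slc25a42, which carries coenzyme A, had exactly 0 for ClpP and 2.49 for ClpX per the authors' deposited table, where the ClpX value had an adjusted p of 0.445. Slc25a17, the peroxisomal member, had 0.21 for ClpP and 0.49 for ClpX per the authors' deposited table. Over this group the median log2 fold change was 0.23 for ClpP and 0.62 for ClpX, against -0.03 and 0.24 over all peaks.

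**Figure D2:**
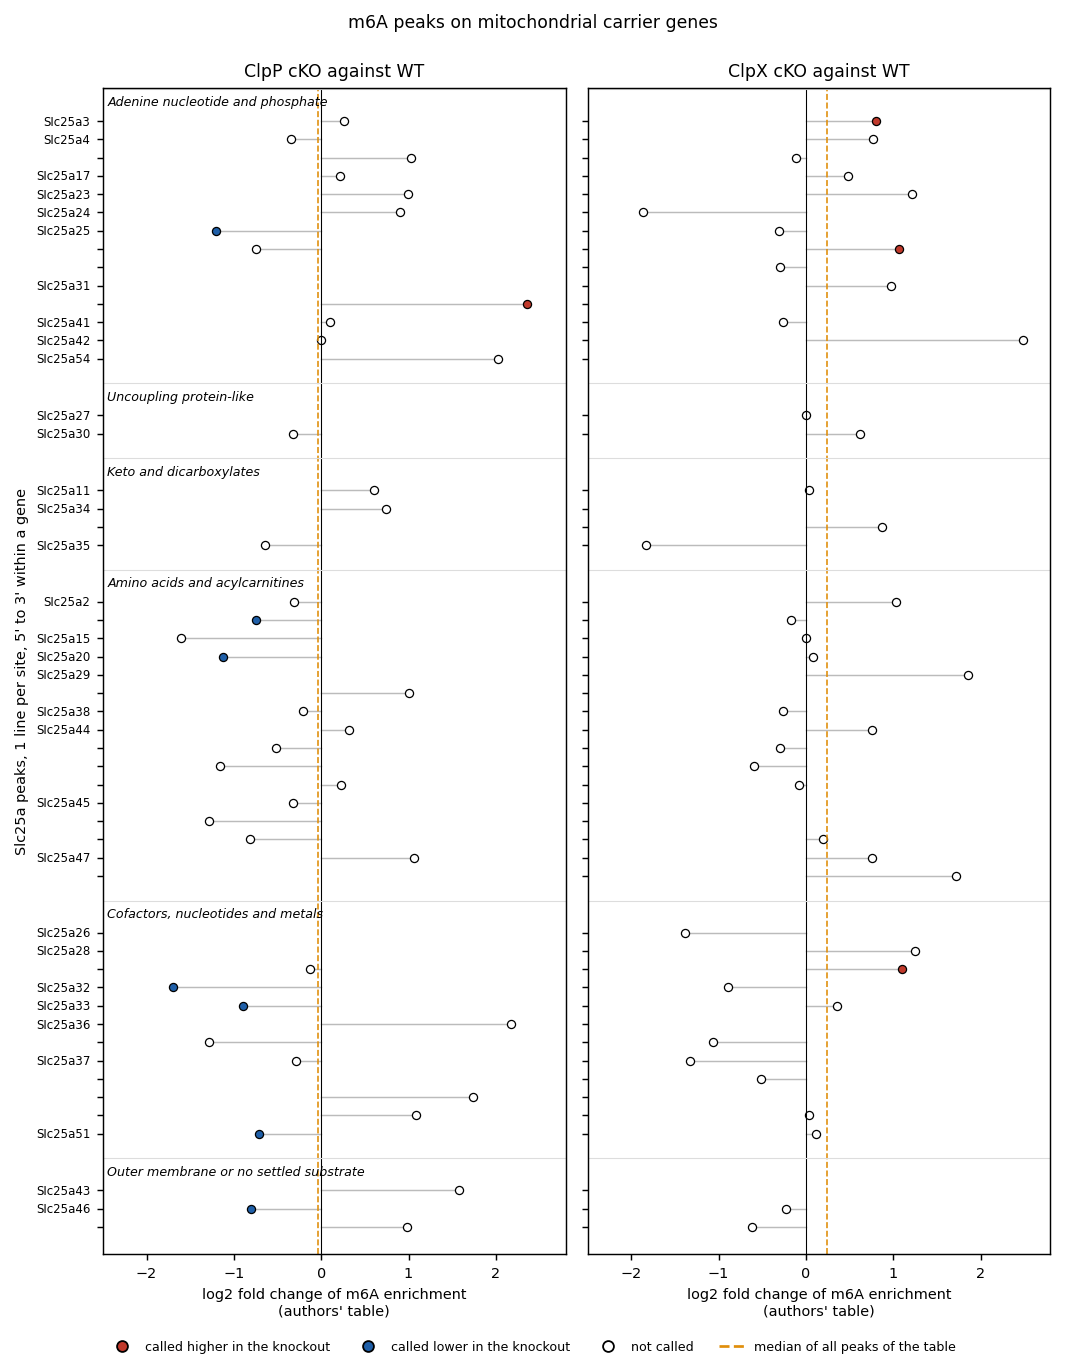
Log2 fold change of m6A enrichment per the authors' deposited table (x axis) at Slc25a peaks, 1 line per site. The left panel is ClpP cKO against WT and the right panel ClpX cKO against WT. Sites are grouped by the substrate class assigned here to each carrier. Filled points passed an adjusted p under 0.05, the dashed line is the median of all peaks of the table, and a line with a point in 1 panel alone was listed in that table alone. The 8 filled points for ClpP and 3 for ClpX lie on different sites, and the share of sites called in both over all paired peaks was not computed.

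Carriers of cofactors, nucleotides and metals gave 3 decreases of 11 peaks in ClpP cKO, against 12.8% of all peaks called lower, and 1 increase of 12 in ClpX cKO, against 15.1% called higher. Slc25a33, which imports pyrimidine nucleotides for mitochondrial DNA and RNA synthesis, had the smallest adjusted p of the family in ClpP cKO, 1.66e-09, at a log2 fold change of -0.90 per the authors' deposited table. Its peak lies 389 bases from the 3′ end of the gene (chromosome 4, 149744425 to 149744784). At the same site ClpX cKO had 0.36 with an adjusted p of 0.0977 per the authors' deposited table, over a wider peak of 510 bases against 360. Slc25a36, the other pyrimidine nucleotide carrier, was not called, with -1.29 for ClpP and -1.06 for ClpX at the paired site per the authors' deposited table. A second peak of Slc25a36, listed for ClpP alone, had 2.17 with an adjusted p of 0.505 per the authors' deposited table.

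Slc25a32, a folate and FAD carrier, had the largest decrease among called carrier peaks in ClpP cKO, -1.70 with an adjusted p of 0.0209 per the authors' deposited table (chromosome 15, 39095484 to 39097584, in 2 blocks). ClpX cKO had -0.89 with an adjusted p of 0.38 at this site per the authors' deposited table. Enrichment was high there, 32 for ClpP and 75.2 for ClpX per the authors' deposited table, and the ClpX value was the highest of any carrier peak.

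Slc25a51, the mitochondrial NAD+ carrier, was called lower in ClpP cKO at -0.72 with an adjusted p of 0.0105 per the authors' deposited table (chromosome 4, 45399067 to 45404811). In ClpX cKO it had 0.12 with an adjusted p of 0.556 per the authors' deposited table. These were the widest carrier peaks, 1198 bases for ClpP and 1228 for ClpX, in 2 blocks each.

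Slc25a28, mitoferrin-2, which carries iron, was called higher in ClpX cKO at 1.1 with an adjusted p of 1.35e-06 per the authors' deposited table (chromosome 19, 43664101 to 43664760), the smallest adjusted p of the family there. In ClpP cKO the paired peak had -0.13 with an adjusted p of 0.394 per the authors' deposited table. A second Slc25a28 peak listed for ClpX alone lay just outside the threshold, at 1.25 with an adjusted p of 0.0537 per the authors' deposited table. Slc25a37, mitoferrin-1, needed for heme synthesis in red cell precursors, had 3 peaks in each comparison and no call. For ClpP its log2 fold changes were -0.28, 1.74 and 1.08, given 5′ to 3′, per the authors' deposited table. For ClpX they were -0.51, -1.33 and 0.04, also 5′ to 3′, per the authors' deposited table. These values do not match site by site. The ClpP peak at -0.28 (870 bases) pairs with the ClpX peak at -1.33 (421 bases), and the one at 1.08 with 0.04. The ClpP peak at 1.74 and the ClpX peak at -0.51 had no partner. The most enriched Slc25a37 peak, at 45.9 for ClpP and 43.6 for ClpX per the authors' deposited table, was the highest of the family for ClpP.

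Slc25a26 carries S-adenosylmethionine, the methyl donor, into mitochondria, and had a peak for ClpX alone, 120 bases wide, at -1.39 with an adjusted p of 0.59 per the authors' deposited table.

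Amino acid and acylcarnitine carriers gave 2 decreases of 14 peaks in ClpP cKO, near the 12.8% of all peaks called lower. In ClpX cKO 0 of their 13 peaks were called by the authors' adjusted p or by a Benjamini-Hochberg adjustment computed here. That compares with 15.1% of all peaks called higher and 5% lower. At an unadjusted p under 0.05, 1 of the 13 was higher, against 4909 of all 23681 peaks. No difference from these shares was tested. Slc25a2, an ornithine carrier, was called lower in ClpP cKO over the 3′ part of its gene (chromosome 18, 37637377 to 37638210), at -0.75 with an adjusted p of 2.14e-05 per the authors' deposited table. At the paired peak ClpX cKO had -0.17 with an adjusted p of 0.492 per the authors' deposited table. Its 5′ peak had -0.31 for ClpP and 1.03 for ClpX (adjusted p 0.471 and 0.146) per the authors' deposited table. Slc25a15, the ornithine carrier of the urea cycle, had -1.61 for ClpP with an adjusted p of 0.518 and exactly 0 for ClpX per the authors' deposited table.

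Slc25a20, which brings acylcarnitines into the matrix for fatty acid oxidation, was called lower in ClpP cKO (chromosome 9, 108683924 to 108684133). Its log2 fold change there was -1.12 with an adjusted p of 0.00427 per the authors' deposited table, at a fold enrichment of 1.91. This call is lost when peaks under a fold enrichment of 2 are left out. In ClpX cKO the peak started at the same base but was 449 bases wide against 210, with 0.08, an adjusted p of 0.605 and a fold enrichment of 3.03 per the authors' deposited table.

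Slc25a44, a carrier of branched-chain amino acids, had 4 peaks in each comparison, from its first bases to its last, and no call. Given 5′ to 3′, the ClpP values were 0.32, -0.52, -1.16 and 0.23 per the authors' deposited table. In the same order the ClpX values were 0.75, -0.29, -0.59 and -0.08 per the authors' deposited table. The ClpP value of -1.16 lay just outside the threshold, with an adjusted p of 0.0513 per the authors' deposited table. The GGAC sites shown above lie in the first and last of these peaks.

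Slc25a45 had 3 peaks for ClpP, at -0.32, -1.28 and -0.82 from 5′ to 3′, and 1 for ClpX, at 0.20, none called per the authors' deposited table. Slc25a29, a carrier of basic amino acids, had 1.0 for ClpP and 1.86 for ClpX at different sites per the authors' deposited table. Slc25a38, which takes part in heme synthesis, had -0.21 for ClpP and -0.27 for ClpX per the authors' deposited table, at peaks of 419 bases each. Slc25a47 had a peak shared by both comparisons at 1.06 for ClpP and 0.76 for ClpX, and another for ClpX alone at 1.72, none called per the authors' deposited table. The shared peak starts, on the gene strand, 13578 bases (ClpP) and 13608 bases (ClpX) before the RefSeq start of Slc25a47. It lies outside the span of that gene, so its gene is uncertain.

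**Figure D3:**
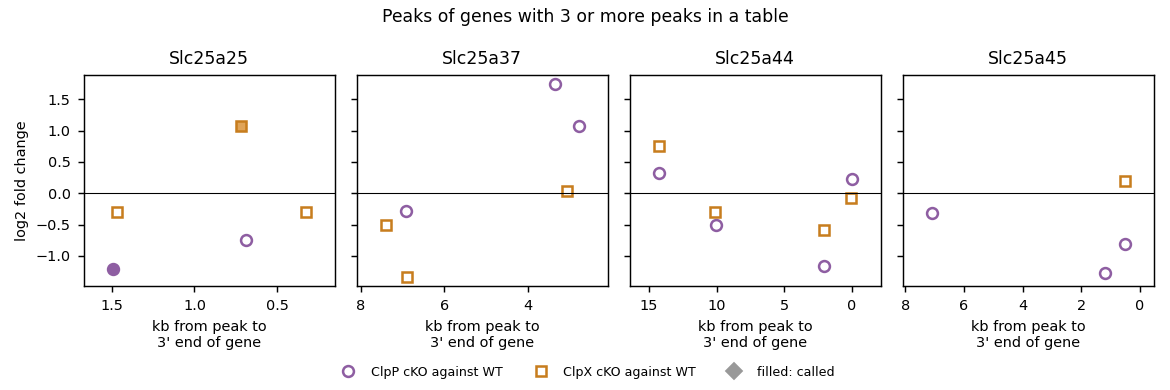
Log2 fold change per the authors' deposited table (y axis) against the distance in kb from each peak to the 3′ end of its gene (x axis, 5′ to the left) for the 4 carrier genes with 3 or more peaks in a table. Circles are ClpP cKO against WT and squares ClpX cKO against WT, and filled points were called. On Slc25a25 the filled circle (-1.21) and the filled square (1.07) sit at neighbouring sites.

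Slc25a46, an outer membrane member involved in mitochondrial shape, was called lower in ClpP cKO at its main peak (chromosome 18, 31582959 to 31597039, 870 bases in 3 blocks). The log2 fold change was -0.80 with an adjusted p of 1.1e-05 per the authors' deposited table, and ClpX cKO had -0.23 with an adjusted p of 0.427 at the paired peak. Its other peak had 0.99 for ClpP and -0.61 for ClpX (adjusted p 0.377 and 0.601) per the authors' deposited table. Slc25a43, a member with no settled substrate, had a peak for ClpP alone, at 1.58 with an adjusted p of 0.574 per the authors' deposited table.

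Slc25a11, Slc25a34 and Slc25a35, assigned here by a list to the keto acid and dicarboxylate carriers, had 3 peaks in each comparison. Of these 0 were called by the authors' adjusted p or by the Benjamini-Hochberg adjustment computed here, against 19.6% (ClpP) and 20.1% (ClpX) of all peaks. At an unadjusted p under 0.05 there was 1 higher for ClpP and 1 lower for ClpX. Over all peaks 2812 of 24127 were higher for ClpP and 2111 of 23681 lower for ClpX at that threshold. With 3 peaks, 0 calls cannot be read as a difference from these shares. Slc25a11, the oxoglutarate carrier of the malate-aspartate shuttle, had strongly enriched peaks, at 39.8 for ClpP and 27.3 for ClpX per the authors' deposited table. Its log2 fold changes were 0.61 with an adjusted p of 0.0977 for ClpP and 0.03 with 0.628 for ClpX per the authors' deposited table. Slc25a34 had 0.74 for ClpP and 0.87 for ClpX at different sites per the authors' deposited table.

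Slc25a35 had the same peak in both comparisons, at -0.64 for ClpP and -1.83 for ClpX (adjusted p 0.427 and 0.0794) per the authors' deposited table. This peak ends 1401 bases past the RefSeq end of Slc25a35 and shares bases with a listed peak of Rangrf in both tables, so its gene is uncertain.

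The uncoupling protein-like members had 1 peak for ClpP and 2 for ClpX. Of these 0 were called by the authors' adjusted p, by the Benjamini-Hochberg adjustment computed here or at an unadjusted p under 0.05. Among all peaks 19.6% (ClpP) and 20.1% (ClpX) were called by the authors' adjusted p. With so few peaks, 0 calls cannot be read as a difference from these shares. Slc25a30 had -0.32 for ClpP and 0.62 for ClpX per the authors' deposited table. Slc25a27, also named UCP4, had a peak of 150 bases for ClpX alone, at exactly 0 per the authors' deposited table.

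Called carrier peaks were wider at the median than those not called. For ClpP the median width was 525 bases over the 8 called carrier peaks and 256 over the 36 not called, and over all peaks it was 456 and 271. For ClpX it was 420 over the 3 called and 299 over the 41 not called, against 446 and 271 over all peaks. Large values without a call were common: 12 uncalled carrier peaks for ClpP and 11 for ClpX had a log2 fold change of 1 or more in size, reaching 2.17 on Slc25a36 (ClpP) and 2.49 on Slc25a42 (ClpX), while the smallest called values were 0.72 and 0.81 in size. They were common in the whole tables too, at 5320 of 19405 uncalled peaks for ClpP and 6562 of 18929 for ClpX. Read counts behind a peak were not used here, so how far depth sets this was not tested.

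Fold enrichment ran from 1.67 to 45.9 over carrier peaks for ClpP, with a median of 7.04, and from 2.28 to 75.2 for ClpX, with a median of 7.54, per the authors' deposited table. The highest values were on Slc25a37, Slc25a11 (39.8), Slc25a51 (32.2), Slc25a32 and Slc25a54 (27.6) for ClpP, and on Slc25a32, Slc25a37, Slc25a11 (27.3), Slc25a47 (22.2) and Slc25a51 (21.1) for ClpX, per the authors' deposited table. Among the lowest were those on Slc25a31, Slc25a20, Slc25a45 (2.76) and Slc25a4 (2.78) for ClpP, and on Slc25a31, Slc25a28 (2.38), Slc25a3 and Slc25a4 (2.63) for ClpX, per the authors' deposited table. Over all peaks the medians were 8.23 and 8.90. In ClpX cKO the 22 carrier peaks of lower enrichment had a median log2 fold change of 0.14 and the 22 of higher enrichment 0.00, against 0.55 and -0.10 over the corresponding parts of the whole table. For ClpP these medians were -0.01 and -0.30 over carrier peaks and 0.05 and -0.13 over all peaks. The called carrier peaks for ClpP spread from an enrichment of 1.67 on Slc25a31 to 32.2 on Slc25a51, and those for ClpX from 2.47 on Slc25a3 to 9.06 on Slc25a25.

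**Figure D4:**
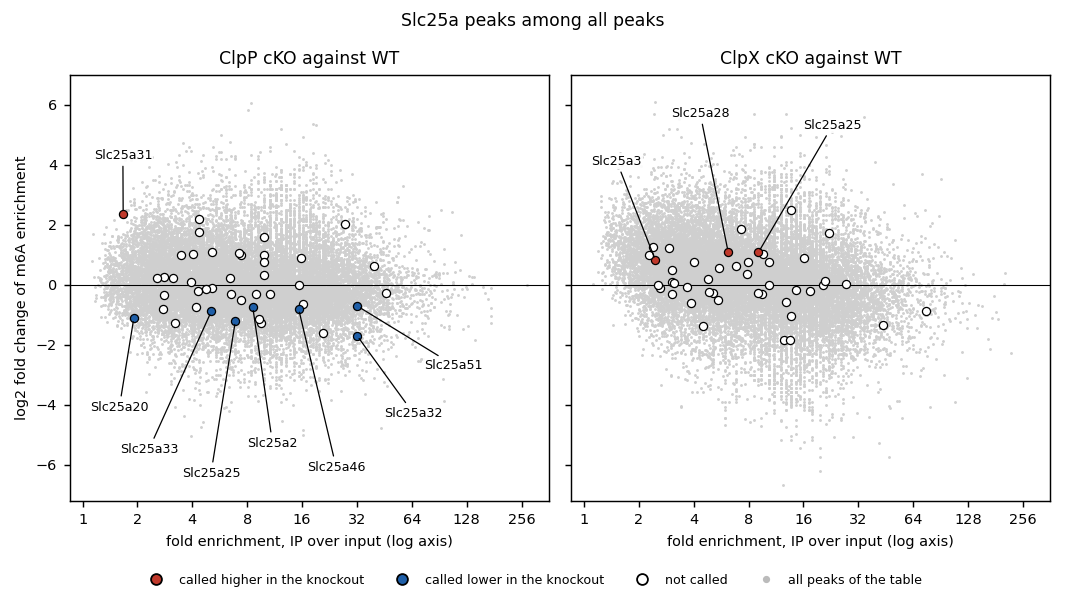
Log2 fold change of m6A enrichment (y axis) against fold enrichment of IP over input (x axis, log scale) per the authors' deposited tables, for ClpP cKO (left) and ClpX cKO (right) against WT. Large points are Slc25a peaks, filled and named where called, and grey dots are all peaks of the table. The called decreases for ClpP run from Slc25a20 at an enrichment of 1.91 to Slc25a51 at 32.2.

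Carrier peaks lay toward the 3′ ends of their genes. Of the 42 peaks inside the RefSeq span of their gene, 22 (52.4%) for ClpP and 21 (50%) for ClpX had their centre in the last 10% of the span, introns included, against 38.8% and 37.3% of all peaks. In the first 10% lay 2 carrier peaks in each comparison (4.76%), against 8.78% and 10.8% of all peaks. The other 2 peaks of each comparison, on Slc25a35 and Slc25a47, lay outside the span. Exon and UTR structure was not used here. Carrier genes also carried few peaks each: 22 of 31 genes had 1 peak in each comparison, or 71% against 53.9% (ClpP) and 54% (ClpX) of all genes. Peaks of 1 block were 37 of 44 for ClpP (84.1%, against 70.3% of all peaks) and 39 of 44 for ClpX (88.6%, against 72.5%). None of these differences was tested.

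**Figure D5:**
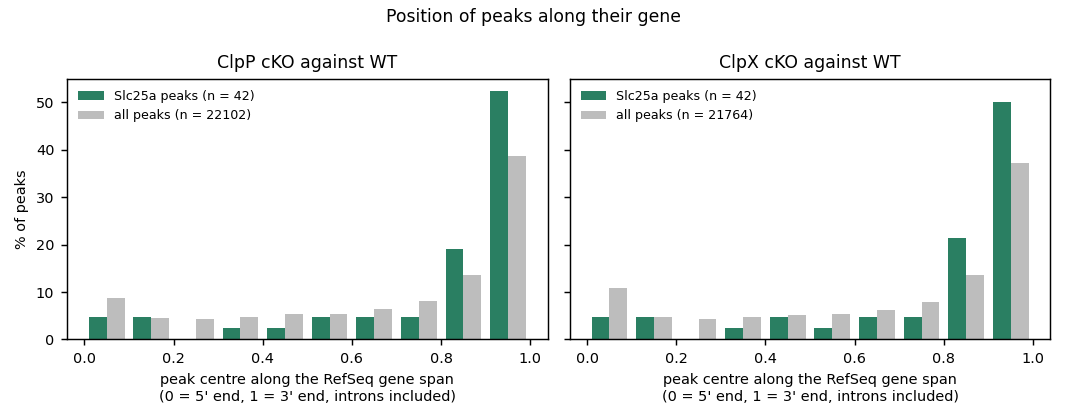
Share of peaks (% on the y axis) by the position of the peak centre along the RefSeq gene span (x axis, 0 at the 5′ end and 1 at the 3′ end, in steps of 0.1), for Slc25a peaks (green) and all peaks (grey) of each comparison. The last step holds 52.4% of carrier peaks for ClpP and 50% for ClpX.

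The same sites were mostly listed in both comparisons. Of the 44 carrier peaks of each table, 35 (79.5%) had a partner in the other table that shared at least 1 base on the same strand, against 77.5% (ClpP) and 79% (ClpX) of all peaks. Partners of carrier peaks also had to bear the same gene name, which was not asked over all peaks. Bounds were identical at 6 of the 35 sites, and the median width over paired sites was 330 bases for ClpP and 329 for ClpX. Slc25a43 and Slc25a54 had peaks for ClpP alone, and Slc25a26 and Slc25a27 for ClpX alone.

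Genes around the carriers were counted from lists chosen by function. Carrier proteins are made in the cytosol and reach the inner membrane through the TOM pore, small chaperones of the intermembrane space and the TIM22 complex. Of 13 such import genes, 6 had a peak for ClpP, with 2 peaks higher and 1 lower of 12, and 7 for ClpX, with 5 higher and 1 lower of 11. Over all peaks 6.74% were higher and 12.8% lower for ClpP, and 15.1% and 5% for ClpX, and no difference from these shares was tested. Tomm40, the pore of the outer membrane, was called higher at 1.32 for ClpP and 2.19 for ClpX, and Tomm22, a receptor of the same complex, at 0.43 and 1.48, per the authors' deposited table. Timm8b, an intermembrane space chaperone, was called lower for ClpP at -0.54 per the authors' deposited table. For ClpX the chaperone Timm13 at 1.55, the TIM22 subunit Timm29 at 0.68 and the receptor Tomm70a at 1.77 were called higher, and the chaperone Timm9 at -1.77 lower, per the authors' deposited table. The called Tomm70a peak had a low fold enrichment of 1.8.

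Of 21 other transporters of the mitochondrial membranes, 10 genes had a peak for ClpP, with 2 peaks higher and 2 lower of 16, and 12 for ClpX, with 3 higher and 1 lower of 22, against the same shares of all peaks. Mpc2, a subunit of the pyruvate carrier, held both increases for ClpP, at 2.03 and 1.34 per the authors' deposited table. The peak at 2.03 lies outside the RefSeq span of Mpc2, and the peak at 1.34 had a low fold enrichment of 1.62. Vdac3, an outer membrane pore, was called lower for ClpP at -0.49 per the authors' deposited table. For ClpX the increases included Abcb8 at 1.96 and Letm1, an ion exchanger, at 1.82, with another Letm1 peak called lower at -1.45, per the authors' deposited table. Of the 5 genes of the carrier family that go by other names (Ucp1, Ucp2, Ucp3, Mtch1 and Mtch2), 0 had a peak in the tables used here.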

How the data were processed

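The 6 libraries (IP and input for ClpP cKO, ClpX cKO and WT, 1 each) were grouped by title. The files are 2 tables of comparisons the authors made. The build is named as GRCm38 (mm10) by the submitters' processing notes. Alignment, peak calling and scaling of libraries, not given in the sources used here, can each move the values, and a scaling factor would move all log2 values of a table together. Each peak has, per the file headers, a p-value, scores that are the log10 of p-values and adjusted p-values, a fold enrichment (a linear ratio) and a log2 fold change between genotypes. The adjusted p of the peaks themselves was at most 0.0427 (ClpP) and 0.0407 (ClpX), so RNA without a called peak is not analysed here.

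Calls use the authors' adjusted p under 0.05. A Benjamini-Hochberg adjustment of their p-values over each whole table came within 0.05 of theirs on the log10 scale for 99.4% (ClpP) and 99.3% (ClpX) of peaks, and changed 0 carrier calls in either. Peaks were paired between tables with bedtools 2.31.1 where their blocks shared at least 1 base of the same strand, keeping best mutual pairs. For carrier peaks the gene name also had to be the same. The adjustment was tested on simulated p-values, and the pairing on the ClpP peaks set against a slightly shifted copy of themselves. Gene spans and promoter windows are RefSeq's for GRCm38.p6, matched by symbol, which placed 93.7% (ClpP) and 93.8% (ClpX) of peaks and all carrier peaks.

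With 1 library per group there is no test across replicates. Named genes were every carrier gene with a called peak, Slc25a3, Slc25a4 and Slc25a31 whatever their values (Slc25a5, also in the rule, is not analysed here), the carrier peaks of highest and lowest enrichment, and genes with 3 or more peaks in a table, with the remaining members given more briefly. Some genes that enter the counts are not reported here by name. The members and lists were chosen with earlier results of these data known. Alternatives covered the threshold, the adjustment, centring, enrichment, shared bases, the unit counted and the overlap; 1, on RefSeq spans, was chosen after seeing the data.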

Additional observations from a re-analysis of the deposited data

Results flagged for a closer look

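At 5 carrier sites a peak was called in 1 knockout and the log2 fold change had the opposite sign in the other knockout. At the called paired sites of Slc25a2, Slc25a3, Slc25a32 and Slc25a46, and at the other called site of Slc25a25, both signs were the same. The share of opposite signs over all paired peaks was not computed. The calls of the whole tables also lean opposite ways, 12.8% lower and 6.74% higher for ClpP, 5% lower and 15.1% higher for ClpX. The difference between the knockouts was not tested, since each has 1 set of libraries and both share the WT libraries. Per the authors' deposited table Slc25a28 had -0.13 for ClpP and 1.1 for ClpX, and the site of Slc25a25 nearer the 3′ end had -0.75 and 1.07. Slc25a33 had -0.90 for ClpP and 0.36 for ClpX per the authors' deposited table. Slc25a20 had -1.12 for ClpP and 0.08 for ClpX, and Slc25a51 had -0.72 and 0.12, per the authors' deposited table. For Slc25a20 and Slc25a51 the ClpX value lies below the median of all ClpX peaks, 0.24, so that with the table median subtracted both comparisons have a negative sign there.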

How the results depend on the processing

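Each count of calls, each median and the number of paired sites was recomputed under the alternatives, and 41 of 46 values stayed within 1.5 times the reported count or, for a median, kept its sign and moved by less than the interquartile range of the carrier peaks. These limits are wide: among the 41, the 3 ClpX increases became 2 at an adjusted p under 0.01 or with a change of 1 or more in size, the 35 paired sites became 28 where 50% of each peak had to be shared, and the ClpX median became 0.155 with genes at the mean of their peaks and 0.083 with genes at their most enriched peak. For ClpP the 7 decreases became 4 at an adjusted p under 0.01 and 3 when a change of 1 or more in size on the log2 scale was also asked for, and the 1 increase (Slc25a31) became 0 when peaks under a fold enrichment of 2 were left out. The same cut took the 7 decreases to 6, with Slc25a20 lost. The ClpP median of -0.13 turned to 0.092 with genes at the mean of their peaks, and the ClpX median of 0.04 turned to -0.204 with the table median subtracted, so neither median has a settled sign. Which way the deposited ratios run rests on the naming of the tables, and every sign turns if they run the other way. No paired analysis was possible because each group holds 1 library, and no replicate could be left out. Depth is unknown, which limits how a peak without a call can be read.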

Other observations

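Fold enrichments in both tables pile up on a few repeated values. For ClpP 13 values were each held by at least 200 peaks, the most frequent, 12.3, by 454, and for ClpX 18 values were, with 565 peaks at 12. Peaks at these values made up 17.6% (ClpP) and 25.6% (ClpX) of each table, and 5.12% and 5.84% of them were called, against 19.6% and 20.1% of all peaks. Of the carrier peaks 8 for ClpP and 6 for ClpX had such a value, among them Slc25a29, Slc25a34, Slc25a43 and the 5′ peak of Slc25a44 for ClpP, all at 9.95 per the authors' deposited table. The main peak of Slc25a46, called lower for ClpP at an enrichment of 15.3 per the authors' deposited table, is 1 of the 8.

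Slc25a41 and Slc25a23 lie 36.4 kb and 47.3 kb past the end of Clpp on chromosome 17, the gene removed in ClpP cKO. Their log2 fold changes for ClpP, 0.10 and 0.99, had adjusted p of 0.628 and 0.209 per the authors' deposited table.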
